A study of Homo sapiens with 6 samples.

Results

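The Krueppel-like factors (KLFs) are transcription factors that bind GC-rich and CACCC-type DNA through a zinc-finger domain at their carboxyl end. The 10 genes described here were chosen by symbol (KLF2, KLF3, KLF4, KLF5, KLF6, KLF7, KLF9, KLF10, KLF11 and KLF13) and make up 10 of the 46427 genes and 41 of the 170322 transcripts in the deposited tables. All 10 passed the filter on low counts. RNA came from MDA-MB-231/RR cells, a radiation-resistant subline of MDA-MB-231, itself a human triple-negative breast cancer line, in 3 control libraries and in 3 libraries from cells co-treated with ortho-topolin riboside (oTR), a plant cytokinin riboside, and melatonin, the pineal hormone. The study asked whether the 2 compounds given together alter the transcriptome; dose and duration are not given in the sources. Single-compound libraries were not analysed here, so the share of either compound in a difference cannot be told apart. Whether the 3 libraries per group stem from separate cultures is not stated, so the p-values measure the spread among these libraries alone, which may be technical.

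KLFs are usually sorted by the partners that their amino-terminal parts recruit. KLF2, KLF4, KLF5, KLF6 and KLF7 belong to a branch that contacts acetyltransferases and often activates transcription, KLF3 is a repressor that binds CtBP, and KLF9, KLF10, KLF11 and KLF13 carry a Sin3-interacting domain through which they repress. Many KLF transcripts are short-lived and respond early to stress, hormones and growth factors, and in breast cancer cells members of the family have been described both as brakes on growth and as drivers of it.

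The total of estimated counts per library ran from 56521572 to 72309015 for controls and from 50569611 to 72204161 for co-treated cells. Within a group, libraries differed beyond sampling noise (chi-square 11.6 to 19.0 per degree of freedom), and each was counted as its own replicate. The vimentin gene VIM stood at 2037 to 2694 TPM (a level scaled to transcript length) and EGFR at 155 to 230 TPM in the 6 libraries, and the receptor genes ESR1 and PGR lay at 0 to 0.014 TPM, while ERBB2 was at 28.3 to 37.4 TPM. The leukocyte gene PTPRC and the fibroblast gene DCN were at 0 in all 6 libraries.

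Because KLF proteins bind GC boxes and CACCC boxes and several of them are known to act on each other's genes, the bases before the start site are shown for KLF13 and KLF6, which had the largest rises among genes with a window, for KLF4, a smaller rise, and for KLF2, which lay beside the threshold. RefSeq promoter windows (GRCh38.p14) were matched for 8 of the 10 genes, without KLF3 and KLF10. The stretches below run 5′ to 3′ on the gene's strand, end before the first annotated exon base, and lie before starts that are the same in RefSeq and in the deposited transcript table. Capitals mark the GC box GGGCGG and the CACCC box CACCC on either strand, which overlap at one place in KLF13.
KLF13 (chr15:31326585-31326834, plus strand): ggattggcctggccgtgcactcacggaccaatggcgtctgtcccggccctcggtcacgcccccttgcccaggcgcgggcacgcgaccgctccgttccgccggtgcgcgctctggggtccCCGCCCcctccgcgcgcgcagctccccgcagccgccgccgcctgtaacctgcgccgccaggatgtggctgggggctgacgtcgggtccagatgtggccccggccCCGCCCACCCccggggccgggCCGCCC
KLF6 (chr10:3785282-3785459, minus strand): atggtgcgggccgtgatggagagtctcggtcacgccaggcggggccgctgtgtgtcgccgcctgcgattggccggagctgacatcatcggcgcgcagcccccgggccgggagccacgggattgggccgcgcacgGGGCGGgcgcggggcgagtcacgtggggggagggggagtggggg
KLF4 (chr9:107489770-107490019, minus strand): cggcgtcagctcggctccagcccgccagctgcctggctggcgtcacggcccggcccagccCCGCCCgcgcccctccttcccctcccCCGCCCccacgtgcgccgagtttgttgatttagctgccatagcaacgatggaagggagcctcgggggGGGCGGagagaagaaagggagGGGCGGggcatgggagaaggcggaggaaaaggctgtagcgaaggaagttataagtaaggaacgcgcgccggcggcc
KLF2 (chr19:16324576-16324816, plus strand): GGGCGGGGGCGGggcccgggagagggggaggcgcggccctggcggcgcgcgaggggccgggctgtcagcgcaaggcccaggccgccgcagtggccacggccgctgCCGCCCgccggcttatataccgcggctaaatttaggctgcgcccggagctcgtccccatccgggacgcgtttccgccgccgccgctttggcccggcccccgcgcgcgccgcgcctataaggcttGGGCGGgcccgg

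In the 250 bases before the start, the GC box was found in 6 of the 8 matched genes and in 42.6% of the 35116 RefSeq promoters searched. KLF2 and KLF4 each held 4 matches and KLF13 held 3, whereas KLF7 and KLF9 held none. The CACCC box occurred in 3 of the 8 (KLF5, KLF7 and KLF13) and in 54.7% of all promoters. The E-box CACGTG was present in KLF4, KLF6 and KLF11 and in 6.345% of all promoters, and the cyclic AMP response core TGACG in KLF4, KLF5 and KLF13 and in 21.2%. A match to the MEF2 consensus, held by 0.515% of all promoters, lay 120 bases before the KLF2 start and is in capitals in tataccgcggCTAAATTTAGgctgcgcccg. MEF2 factors are the known targets of ERK5 signalling at the KLF2 gene. The TATA element TATAAG was found in KLF2 and KLF4 and in 5.03% of promoters, while the AP-1 site TGANTCA (6.57% of promoters), the forkhead site TGTTTAC (2.98%) and the serum response CArG box (1.16%) were found in none of the 8. All 250 bases were searched, although in some genes part of them lies beyond the first annotated exon base. The stretch before that base was 37 bases in KLF5, 12 in KLF7 and 178 in KLF6, and none was kept for KLF11. The matches of KLF5, KLF7 and KLF11 and a GC box of KLF6 lie outside this stretch. All matches describe letters only, on both strands, and do not show that a factor binds there.

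Of the 10 genes, 6 rose with co-treatment and none fell, by edgeR's quasi-likelihood test with a Benjamini-Hochberg adjusted p under 0.05. The same test called 16.6% of 16557 genes upward and 17.1% downward. The rises were KLF13, KLF6, KLF10, KLF3, KLF5 and KLF4, from the steepest to the shallowest, and in each of them the 3 co-treated values lay above the 3 control values. Such a separation was seen upward in 23.3% and downward in 24.1% of all tested genes. The median log2 fold change was 0.27 over the 10 members and 0.00 over all genes tested. In a bulk measurement, a change in the number of cells that express a gene and a change in RNA per cell cannot be told apart.

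**Figure D1:**
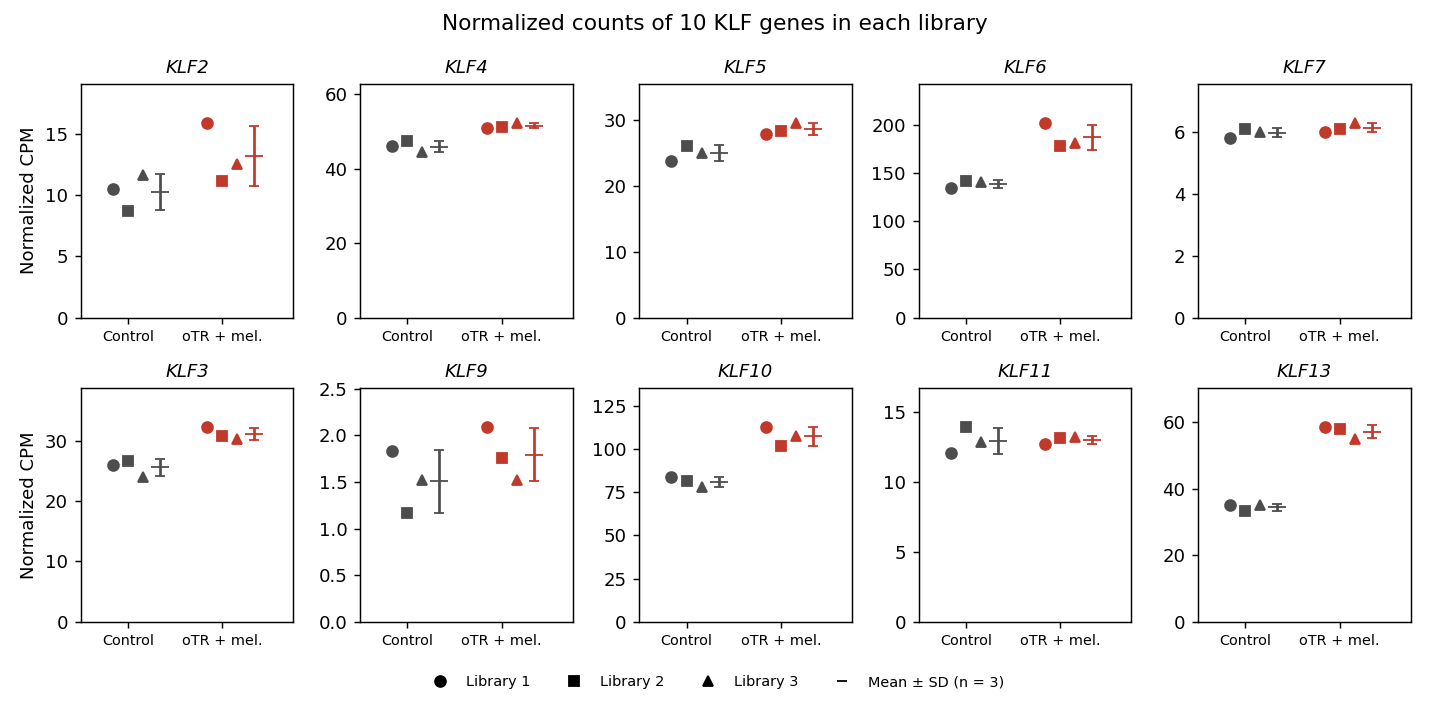
Normalized counts (CPM, y axis from 0) of the 10 KLF genes in each of 3 control (grey) and 3 co-treated (red) libraries, with mean ± SD beside the points. The co-treated points of KLF13, KLF6, KLF10, KLF3, KLF5 and KLF4 sit above all 3 controls, and the groups overlap in KLF2, KLF7, KLF9 and KLF11.

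In the activator branch KLF6, KLF4 and KLF5 rose. KLF6, described as a tumour suppressor that raises the cell cycle inhibitor CDKN1A, stood at 134, 142 and 140 CPM (the estimated count scaled to library size) in the controls and at 202, 178 and 181 in the co-treated libraries. The groups did not overlap, and co-treated library 1 was the highest. The log2 fold change was 0.43 ± 0.05 (SE, 95% interval 0.31 to 0.55, adjusted p 0.000253 by edgeR), a rise of 34.5%.

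KLF4, a pluripotency factor that in epithelia promotes exit from the cell cycle, read 46.0, 47.5 and 44.4 CPM in the controls and 51.0, 51.3 and 52.4 after co-treatment. Its groups were separated by a small step, and the log2 fold change was 0.17 ± 0.05 (SE, edgeR adjusted p 0.0192), or 12.2%. KLF5, which promotes proliferation of basal-type breast cancer cells and opposes KLF4 at shared sites, read 23.8, 26.1 and 25.1 CPM in the controls and 27.8, 28.3 and 29.6 in the co-treated libraries. Its log2 fold change was 0.19 ± 0.06 (SE, 95% interval 0.06 to 0.32), or 14.3%, with an edgeR adjusted p of 0.0260. Both calls depended on single libraries. Without control library 1, control library 3, co-treated library 2 or co-treated library 3 the edgeR adjusted p of KLF4 was 0.0579, 0.0710, 0.0548 and 0.0794, and that of KLF5 was 0.0968, 0.0601, 0.0570 and 0.101.

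KLF2, a shear-responsive factor that keeps endothelium and lymphocytes quiescent, read 10.5, 8.71 and 11.6 CPM in the controls and 15.9, 11.1 and 12.6 after co-treatment. The groups overlapped, since co-treated library 2 lay below control library 3, and the log2 fold change of 0.36 ± 0.13 (SE, 95% interval 0.07 to 0.66) did not pass (edgeR adjusted p 0.0578). KLF2 lay beside the threshold rather than far from it: DESeq2 gave an adjusted p of 0.0418, and leaving out co-treated library 2 or control library 3 gave 0.0274 and 0.0392 with edgeR. Without co-treated library 1, its highest value, the log2 fold change was 0.21 (edgeR adjusted p 0.216).

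KLF7, which supports neuronal outgrowth and is weakly expressed here, read 5.80, 6.09 and 5.99 CPM in the controls and 6.002, 6.10 and 6.29 after co-treatment. The groups overlapped, and the 95% interval of its log2 fold change ran from -0.14 to 0.22 (edgeR adjusted p 0.735).

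KLF3, the CtBP-binding member, is known in fat and blood cells as a brake on genes that other KLFs activate. It read 26.0, 26.7 and 24.0 CPM in the controls and 32.3, 30.8 and 30.3 in the co-treated libraries, with a clear gap between the groups. Its log2 fold change was 0.28 ± 0.06 (SE, 95% interval 0.15 to 0.42, edgeR adjusted p 0.00431), or 21.8%.

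In the Sin3-binding branch KLF13 and KLF10 rose, and KLF9 and KLF11 were not called. KLF13, also known as a regulator of the chemokine gene CCL5 in T cells, read 35.2, 33.2 and 35.0 CPM in the controls and 58.7, 58.1 and 54.9 after co-treatment. The lowest co-treated value was far above the highest control. The log2 fold change was 0.73 ± 0.05 (SE, 95% interval 0.62 to 0.84, edgeR adjusted p 8e-06), or 66.0%, and 6.02% of tested genes had a larger absolute change. KLF13 was called in each alternative processing and with each library left out, with log2 fold changes of 0.63 to 0.86.

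KLF10, cloned as a gene induced early by TGF-beta and a repressor of growth, read 83.8, 81.4 and 77.8 CPM in the controls and 113, 102 and 107 in the co-treated libraries. The groups were well apart, with a log2 fold change of 0.41 ± 0.05 (SE, 95% interval 0.30 to 0.52, edgeR adjusted p 0.000219), or 32.7%. KLF11, its closest relative and likewise TGF-beta responsive, read 12.1, 14.0 and 12.9 CPM in the controls and 12.7, 13.2 and 13.3 after co-treatment, and its 95% interval of -0.15 to 0.17 on the log2 scale (edgeR adjusted p 0.950) ended below the interval of KLF10. The groups of KLF11 overlapped, and the difference between the 2 genes was not tested.

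KLF9, a glucocorticoid and thyroid hormone responsive repressor, was the scarcest member. It read 1.84, 1.16 and 1.52 CPM in the controls and 2.09, 1.76 and 1.53 after co-treatment, from 83 to 114 estimated counts per library. The groups overlapped and the 95% interval ran from -0.18 to 0.69 (edgeR adjusted p 0.359), an interval that includes both 0 and the value of KLF6.

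Within the co-treated group, library 1 gave the highest value for 6 genes (KLF2, KLF3, KLF6, KLF9, KLF10 and KLF13) and library 3 for the other 4. Without co-treated library 1, the genes called were the 6 called with all libraries (KLF3, KLF4, KLF5, KLF6, KLF10 and KLF13). Summed over the 10 genes, the level was 201 to 214 TPM in the controls and 282 to 314 TPM in the co-treated libraries, with no overlap. TPM stood higher after co-treatment for genes in general, with a median log2 ratio of 0.091 over all tested genes (pseudocount 1). In normalized CPM the sum was 379 to 387 in the controls and 480 to 521 in the co-treated libraries.

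**Figure D2:**
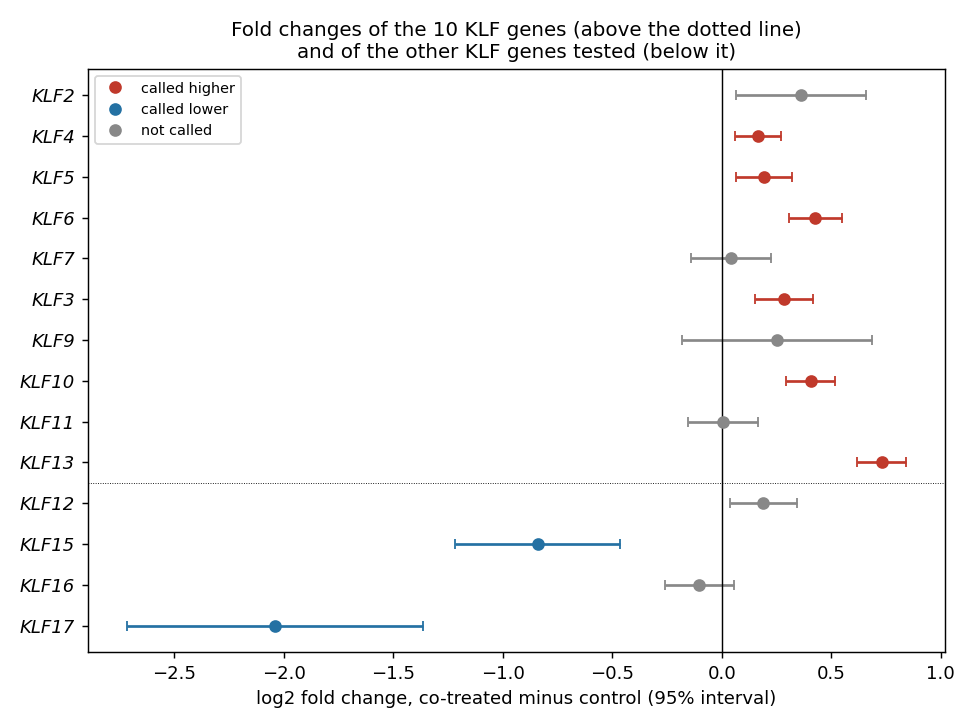
Log2 fold change (x axis, co-treated minus control) with its 95% interval for the 10 KLF genes and, below the dotted line, for the 4 other KLF genes that passed the filter. KLF13 lies farthest to the right at 0.73, and KLF15 and KLF17 are the genes called lower.

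The log2 fold changes are relative to the bulk of genes, and this reference depends on the scaling. With relative log expression factors 2743 genes were called higher and 2835 lower. With library size alone the split was 3816 to 2065, on log2(TPM + 1) it was 4516 to 1339, and with the medians of that scale aligned it was 1621 to 3477. On log2(TPM + 0.1) the median of all genes stood at 0.12. None of these scalings turned the direction of the 6 called members, and KLF5 alone among them lost its call with aligned TPM medians (limma adjusted p 0.0723).

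**Figure D3:**
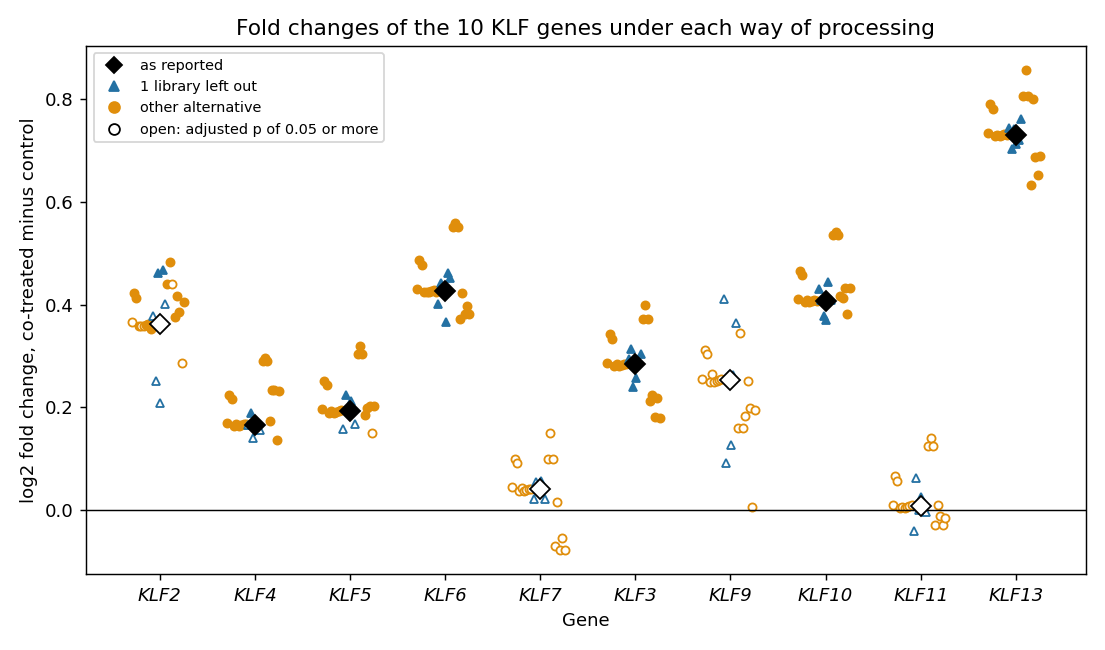
Log2 fold change (y axis) of the 10 KLF genes as reported (diamonds), with 1 library left out (triangles) and under other alternatives (circles), open symbols marking an adjusted p of 0.05 or more. KLF13, KLF6, KLF10 and KLF3 are filled throughout, and KLF7 and KLF11 are open throughout and scatter about 0.

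Levels per length ranked the family over a wide span. In the controls the mean TPM was 64.1 for KLF6, 58.4 for KLF10, 32.9 for KLF4, 15.9 for KLF5, 10.7 for KLF13, 10.2 for KLF3, 7.71 for KLF2, 6.80 for KLF11, 1.55 for KLF7 and 0.608 for KLF9. The ranges of KLF13 and KLF3 overlapped, as did those of KLF2 and KLF11, and the other neighbours were separated. KLF6 and KLF10 held 30.7% and 27.9% of the summed TPM of the 10 genes. KLF6 lay above 84.6% of tested genes by control TPM, and KLF9 above 15.1%. The co-treated libraries gave the same order by mean TPM, but there the neighbours KLF6 and KLF10, KLF5 and KLF13, and KLF3 and KLF2 overlapped. KLF13 had closed on KLF5, with means of 19.4 and 19.8 TPM.

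**Figure D4:**
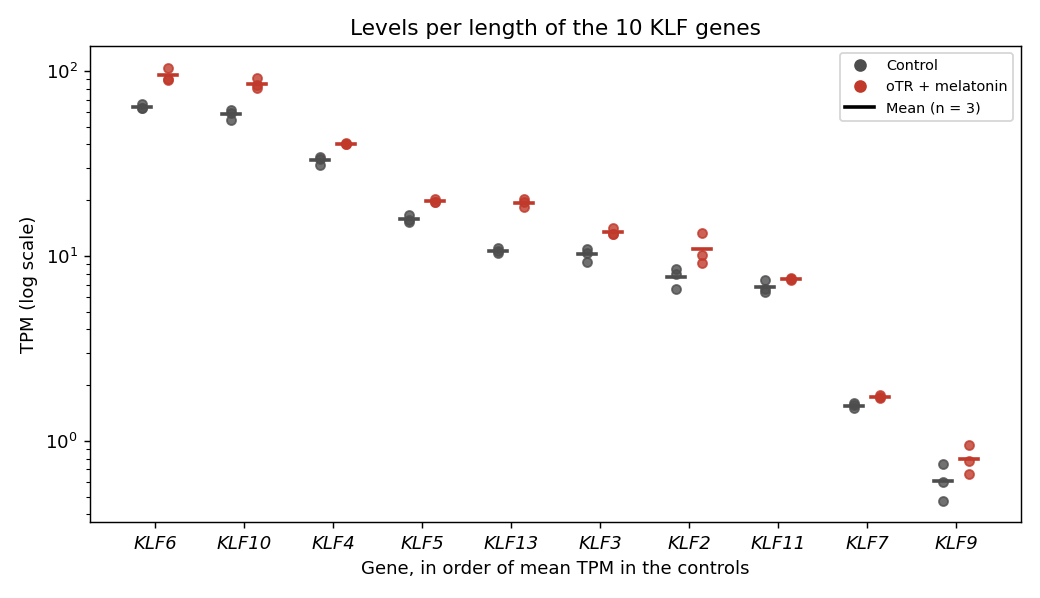
TPM of the 10 KLF genes (log scale) in 3 control (grey) and 3 co-treated (red) libraries, with lines at the means, in the order of the control means. KLF6 and KLF10 lead in both groups, and KLF13 moves from beside KLF3 to beside KLF5.

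The transcript table was used to ask whether the genes changed which variant they make. Of the 6 KLF genes with at least 2 tested transcripts (KLF3, KLF4, KLF5, KLF6, KLF7 and KLF10), 0 were called for a change in transcript usage by limma's diffSplice, where 1.9% of 9961 genes and 0.617% of single transcripts were called. The lowest unadjusted limma p among the 6 was that of KLF5, at 0.0979. diffSpliceDGE of edgeR also called 0 of the 6 after adjustment, where it called 159 of 9961 genes. Its lowest unadjusted p among the 6 was again that of KLF5, at 0.0219 (adjusted p 0.344). With 0.617% to 1.9% called in limma, 0 of 6 is near the share over all genes. Without control library 1, KLF10 had an unadjusted p of 0.0170 in limma (adjusted p 0.236). The test had little reach: with simulated 3-fold swaps in 100 of 9588 genes it recovered 18. KLF2 and KLF9 have only 1 listed transcript each, so their shares were fixed in advance. The counts of KLF11 and KLF13 came almost wholly from 1 transcript each. The rise of KLF13 was thus that of NM_015995, which held 99.958% to 100% of its counts.

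In KLF6, control shares of NM_001300 were 92.2%, 93.0% and 91.7% of the counts, and its co-treated shares were 92.2%, 92.7% and 78.5%. Co-treated library 3 stood apart, and there NM_001160124 held 13.7% against 2.22% to 3.32% in the other 5 libraries. In KLF10, NM_005655 held 96.8%, 92.0% and 85.3% in the controls and 95.7%, 93.2% and 94.5% after co-treatment, and NM_001032282 nearly all the rest. In KLF4, NM_004235 held 78.9% to 83.3% in the controls and 72.7% to 87.1% in the co-treated libraries, so the groups overlapped.

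KLF3 and KLF7 showed how loosely such estimates are held. The share of NM_016531 in KLF3 was 74.5%, 34.9% and 50.5% in the controls and 64.7%, 86.5% and 40.2% after co-treatment, with XM_017008279 taking most of the remainder. In KLF7, NM_003709 ranged from 18.7% to 87.8% within the controls and from 36.1% to 80.1% within the co-treated libraries, and NM_001270944 from 0% to 75.8%. Spread within a group was thus larger than the difference between groups for both genes.

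**Figure D5:**
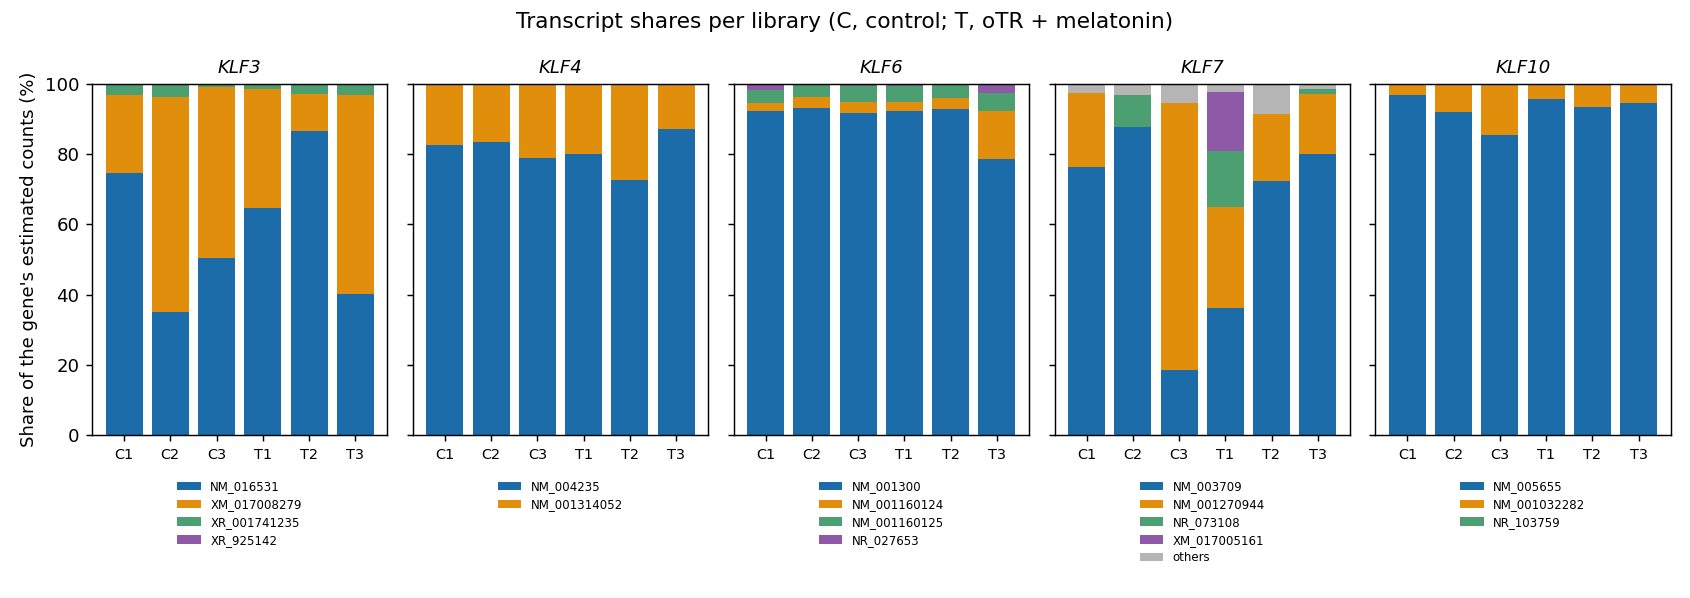
Share of each gene's estimated counts (y axis, %) held by its transcripts in 3 control (C) and 3 co-treated (T) libraries, for the 5 KLF genes with 2 or more sizeable transcripts. The bars of KLF3 and KLF7 vary widely within both groups, and in T3 NM_001160124 holds 13.7% of the KLF6 counts.

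The 3′ untranslated regions of the 10 genes varied in AU-rich sequence. The pentamer ATTTA, the core of AU-rich elements that shorten the life of an mRNA, occurred at 0.893 per kilobase in KLF13 and up to 3.56 per kilobase in KLF2, against a median of 1.70 over 12564 tested genes. It was denser than that median in 8 of the 10 members, the exceptions being KLF13 and KLF6. The longer form TATTTAT was present once each in KLF2, KLF5, KLF6, KLF7 and KLF11, and in 35.9% of all those genes.

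Of 8 further KLF genes 4 passed the filter, and by edgeR KLF15 and KLF17 fell and none rose. Among all tested genes 17.1% fell and 16.6% rose. KLF15, a metabolic regulator in muscle and liver, read 1.84, 2.34 and 2.41 CPM in the controls and 1.43, 1.10 and 1.16 after co-treatment, with no overlap (log2 fold change -0.84 ± 0.17, SE, edgeR adjusted p 0.00364). KLF17, described in breast cancer as a suppressor of metastasis, read 0.883, 1.23 and 0.802 CPM in the controls and 0.202, 0.174 and 0.313 in the co-treated libraries. Its log2 fold change was -2.04 ± 0.31 (SE, edgeR adjusted p 0.000644), from 49 to 88 estimated counts in the controls and 9 to 23 after co-treatment. At these low levels the size depends on the scale: on log2(TPM + 1) the change was -0.52 for KLF17 and -0.40 for KLF15, and both were still called (limma adjusted p 0.00380 and 0.0133). KLF17 was not tested under the filters of 10 counts in every library and 1 CPM in 3 libraries. KLF12, a CtBP-binding relative of KLF3, had a log2 fold change of 0.19 (edgeR adjusted p 0.0539). KLF12 was called higher in 6 alternatives, among them library size alone (0.0189) and the replicate block (0.0413), and stood at 0.00 with length and GC trends removed (edgeR adjusted p 0.99). KLF16, a Sin3-binding member, had a log2 fold change of -0.10 (edgeR adjusted p 0.301). KLF1 and KLF14 were at 0 counts in all 6 libraries, and KLF8 and KLF18 had 0 to 6.

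The SP factors bind the same GC boxes. By edgeR 1 of 6 tested rose and 1 fell, near the shares of all tested genes (16.6% and 17.1%). Of 6 tested, SP4 rose by 0.28 ± 0.08 and SP2 fell by 0.18 ± 0.05 in log2 units (SE, edgeR adjusted p 0.0163 and 0.0154), and SP1, the most abundant by CPM, stood at 136 ± 1.65 (SD, n = 3) and 135 ± 3.66 (SD, n = 3). SP2 was not called on log2(TPM + 1) (limma adjusted p 0.454), with library size alone or with the GC trend removed (edgeR adjusted p 0.07 and 0.0668). SP4 was not called with the length trend removed (edgeR adjusted p 0.0501), with length and GC trends removed (edgeR, 0.125), with TPM medians aligned (limma, 0.0835), nor without control library 1 or 3 (edgeR adjusted p 0.0599 and 0.0714).

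Among 10 KLF cofactors, the acetyltransferase gene KAT2B rose by 0.32 ± 0.06 on the log2 scale, and the deacetylase gene HDAC1 (-0.24 ± 0.04) and the acetyltransferase gene CREBBP (-0.20 ± 0.04) fell (edgeR adjusted p 0.00251, 0.00133 and 0.00365). CTBP1, CTBP2, SIN3A and SIN3B, which the repressor members recruit, were not called, but SIN3B was called lower with the length trend removed (-0.18, edgeR adjusted p 0.00952). CTBP2 was called lower with the replicate block and both length and GC trends removed (-0.13, edgeR adjusted p 0.0322). HDAC1 and CREBBP were not called on log2(TPM + 1) (limma adjusted p 0.0754 and 0.195). By edgeR 1 of the 10 cofactor genes was called higher and 2 lower, against 16.6% and 17.1% of all tested genes.

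The ERK5 and MEF2 list, the known route to KLF2 and KLF4 induction, had 7 tested genes, of which 3 rose and none fell by edgeR. The kinase genes MAP3K2 (log2 fold change 0.31 ± 0.07, adjusted p 0.00721) and MAP3K3 (0.29 ± 0.05, 0.00165) act at its top, and MEF2C (0.31 ± 0.08, 0.00944) at its end. MAPK7, the ERK5 gene itself, was not called (0.11, edgeR adjusted p 0.252). MAP2K5, MEF2A and MEF2D were not called either (edgeR adjusted p 0.339, 0.0871 and 0.407). The median of the list was 0.14, against 0.00 over all genes, of which 16.6% were called upward and 17.1% downward. With length and GC trends both removed, MAP3K2 was not called (edgeR adjusted p 0.182), and with TPM medians aligned, MEF2C was not (limma adjusted p 0.109).

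Of 10 genes for ubiquitin ligases and related proteins reported to turn over KLF proteins, 4 rose and none fell by edgeR. Among all tested genes 16.6% rose and 17.1% fell. The 4 were WWP1, a ligase for KLF2 and KLF5 (0.16 ± 0.05 on the log2 scale, adjusted p 0.0262), SMURF2 (0.16 ± 0.04, 0.0190), BTRC (0.20 ± 0.04, 0.00533) and VHL (0.17 ± 0.04, 0.0145). BTRC was called in each alternative. With length and GC trends removed the edgeR adjusted p of WWP1 was 0.308 and of SMURF2 0.839, and FBXO22, a subunit gene of a ubiquitin ligase, was called lower (log2 fold change -0.28, 0.00256, against -0.08 and 0.277 without the removal). With the length trend alone removed VHL was not called either (0.0565). Leaving out 1 library also ended calls: WWP1 without control library 1, 2 or 3 or co-treated library 1 (0.0518, 0.0562, 0.0894 and 0.0828), SMURF2 without control library 1 or 3 or co-treated library 3 (0.0717, 0.0775 and 0.0788), and VHL without control library 1 or co-treated library 2 or 3 (0.0722, 0.0518 and 0.0508, all edgeR adjusted p).

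Genes reported as KLF targets moved both ways. Of 26 tested, 7 rose and 7 fell by edgeR, and the median log2 fold change was 0.00, as over all genes. The shares over all tested genes were 16.6% upward and 17.1% downward. CDKN1A, which encodes the cell cycle inhibitor p21 and is a reported target of KLF4 and KLF6, rose from 35.1 ± 2.30 to 63.8 ± 6.28 CPM (SD, n = 3 each; log2 fold change 0.86 ± 0.07, edgeR adjusted p 2.64e-05). The galectin gene LGALS3 (0.66 ± 0.06), the TGF-beta receptor gene TGFBR1 (0.39 ± 0.07) and NOTCH1 (0.28 ± 0.05) followed. TXNRD2, which encodes mitochondrial thioredoxin reductase, fell by 0.82 ± 0.07 on the log2 scale, and the growth driver MYC fell from 180 ± 6.60 to 125 ± 4.76 CPM (SD, n = 3 each; log2 fold change -0.53 ± 0.05). Endoglin, ENG (-0.38 ± 0.05), and the urokinase gene PLAU (-0.37 ± 0.04) completed the 4 largest falls. All of these kept their call with each library left out, and NOTCH1 was not called after removal of a length trend (edgeR adjusted p 0.0530).

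The genes whose log2 CPM tracked KLF13 most closely over the 6 libraries were RTF1, a transcription elongation factor gene (Pearson r 0.999), MAN2A2, a Golgi mannosidase gene (0.998), and GFPT2, an enzyme gene of the hexosamine pathway (0.998). Their log2 fold changes were 0.20, 0.36 and 0.53. The 6 points fall into 2 groups of 3, so a gene that separates the groups evenly gives a high r, and these values are a description.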

How the data were processed

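Total RNA of 6 samples was sequenced, and groups and replicate numbers come from the sample titles. Columns starting with Con were taken as controls and those starting with Mo (melatonin, oTR) as co-treated. The submitters' processing notes name GRCh38, StringTie 2.1.3b, SAMtools 1.9, HISAT2 2.1.0, Bowtie2 and Trimmomatic 0.38, without roles. Strandedness is not stated in the sources, so reads of KLF3 and KLF9 cannot be told apart from those of the overlapping KLF3-AS1 and KLF9-DT, which held 0 to 8 estimated counts.

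The authors deposited estimated counts, FPKM and TPM per gene and per transcript. The estimated counts are whole numbers, but all 326878 low transcript values tested equalled the deposited FPKM times the transcript length, rounded up (tolerance 0.06 counts), so they are not whole counted reads. The deposited TPM gave the levels per length and an alternative test, and the deposited FPKM only an alternative order.

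Genes were filtered with filterByExpr (minimum count 10) and tested with edgeR 4.0.16 (quasi-likelihood, relative log expression factors) in R 4.3.3, with Benjamini-Hochberg adjustment over 16557 genes and a threshold of 0.05. Transcript usage was tested with diffSplice of limma 3.58.1 after voom. Alternatives were TMM factors, library size alone or without the 20 most abundant genes, DESeq2 1.42.0, voom, other filters, limma on log2(TPM + 1) and log2(TPM + 0.1), a replicate block, removal of length and GC trends, and each library left out. Aligned TPM medians, and both trends removed without the block, were added after seeing the data. GC was found for 86.8% of tested genes.

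The members and lists were chosen with earlier results of these data known. Named are all members, each called gene of a related list (the 4 largest changes where more than 4 were called in a direction), transcripts with at least 10% of a gene's counts, and the 3 genes most correlated with the member of smallest p; 1 gene of a related list is not reported here.

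On counts simulated for 16303 genes, with 50 changed at each size, edgeR found 15 of those changed 1.25-fold, 32 of those changed 1.5-fold, 37 for 2-fold and 47 for 4-fold, and 11 of its 142 calls were false. Motif shares are over 35116 RefSeq promoters, chromosome 8 left out. A simulated length trend gave 572 calls before and 0 after its removal. Figures were drawn with matplotlib 3.10.9.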

Additional observations from a re-analysis of the deposited data

How the results depend on the processing

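Across all alternatives, 4 to 7 members were called upward and 0 downward. Over all genes, 9.36% to 27.3% were called upward and 3.73% to 21.5% downward in these settings. The upward share was largest on log2(TPM + 1), at 27.3% against 8.09% downward. Leaving out each library in turn gave 4 to 6 members upward and 0 downward. Over all genes this gave 12.4% to 14.1% upward and 12.9% to 14.8% downward. KLF13, KLF6, KLF10 and KLF3 were called in every setting. KLF2 joined the calls in most alternatives, but not in others such as TMM factors, voom and aligned TPM medians. KLF7 and KLF11, never called, changed sign in some settings. The log2 fold change of KLF7 was -0.071 with a length trend removed, -0.0779 with length and GC trends removed, -0.0783 with the replicate block as well, and -0.055 with TPM medians aligned. That of KLF11 was -0.0296, -0.0148, -0.0118 and -0.0293 in the same settings, and -0.041 to 0.062 with a library left out. Related genes called downward numbered 13 as reported, 8 on log2(TPM + 1) and 8 on log2(TPM + 0.1). With no filter, log2(TPM + 1) gave 7. Downward calls over all genes also fell in these settings, from 2835 to 1339, 1338 and 968. The last count is of 25945 genes and the others are of 16557. Related genes called upward numbered 19 as reported and 12 with a length trend removed, against 2743 and 2489 over all genes. The cause was not tested. By mean CPM instead of TPM, 5 of 10 members kept their rank. Same-numbered libraries did not deviate together (correlations 0.07, 0.0004 and -0.04), and not every library correlated best with its own number. With 3 libraries per group, such weak correlations cannot decide whether the numbers pair the samples. The replicate block called 3177 genes higher and 3190 lower, against 2743 and 2835 without it. With the replicate block 7 members were called, KLF2 included (edgeR adjusted p 0.00832). For transcript usage the block called 0 of 6 KLF genes and 105 of 9961 genes. Low counts limit KLF9, and the small number of libraries limits calls of small changes.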

Other observations

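Genes that respond to glucocorticoids, known to induce KLF9, or early to TGF-beta, known to induce KLF10, were measured beside them. Of 7 tested glucocorticoid-responsive genes, DUSP1, a phosphatase that switches off MAP kinases, and ERRFI1, an inhibitor of EGFR signalling, rose by edgeR, and none fell. DUSP1 went from 48.9 ± 3.66 to 75.7 ± 5.12 CPM (SD, n = 3 each; log2 fold change 0.63 ± 0.07) and ERRFI1 from 287 ± 4.13 to 397 ± 22.0 CPM (0.46 ± 0.05). The receptor gene NR3C1 and the targets PER1, FKBP5, TSC22D3 and SGK1 were not called. Among genes induced early by TGF-beta, the repressor gene TGIF1 rose by edgeR (log2 fold change 0.35 ± 0.07). SMAD7, SKIL, CCN2 and PMEPA1 were not called. DUSP1, ERRFI1 and TGIF1 kept their calls with each library left out. For comparison, 16.6% of all tested genes were called upward and 17.1% downward.

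Copies of KLF genes took few counts. The pseudogene KLF3P1 held 0 to 3 estimated counts per library, and KLF2P1, KLF2P3, KLF2P4, KLF3P2 and KLF7P1 were at 0 in all 6 libraries.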
